A study of Mus musculus with 45 samples.

Results

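The comparison described here sets 3 clones of granulocyte-derived induced pluripotent stem cells (iPSCs) from mouse 2 at passage 16 (p16) against 3 clones of the same origin and mouse at passage 4 (p4). The members were the arrays whose labels give granulocyte origin, mouse 2 and one of these passages, which are 6 of the 33 arrays in the table used and 6 of the 45 samples of the series. All lines were made with a secondary reprogramming system, and these came from bone marrow granulocytes. Per the labels' protocols, the cells grew in serum and LIF on irradiated mouse embryonic fibroblasts, were preplated to remove these feeders, and gave total RNA that was labelled as biotin cRNA and hybridised to expression arrays. The other groups used below are iPSCs from tail tip fibroblasts, splenic B cells and T cells of mouse 2 and from granulocytes of mouse 1, each with 3 clones at p4 and 3 at p16. Strain, sex, age and the reprogramming alleles are not given in the sources used here. The clones came from a single animal, so each p-value covers a spread between clones and not between mice. That spread is pooled over all groups of the 33 arrays, so it is not the spread of these 6 arrays alone.

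Reprogramming returns a differentiated cell to a pluripotent state that is held by a network of transcription factors, among them Oct4 (Pou5f1), Sox2 and Nanog. The granulocyte is a short-lived innate immune cell that carries antimicrobial granule proteins, and early-passage iPSCs are known to keep traces of the cell they came from. Mouse iPSCs in serum and LIF are a mixed population in which naive pluripotency genes vary from cell to cell and a few cells turn toward primitive endoderm, and continued passage selects among cells and clones. In bulk RNA, a change in the share of cells that express a gene and a change in RNA per cell cannot be told apart.

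The labelled cell type was checked against its markers. The transcripts of Pou5f1, Sox2, Nanog, Zfp42, Esrrb, Fbxo15 and Dppa5a lay above the upper quartile of all genes on all 6 arrays. Of 9 granulocyte markers, Elane, Lcn2, Camp, Ngp and Csf3r lay below the lower quartile on all 6, Mpo and S100a8 on 5, and Ltf and S100a9 on 4. The pan-leukocyte marker Ptprc (CD45), at 2.82 to 3.70 on the log2 scale, and Tyrobp lay below it on all 6 and Cd53 on 1, whereas Laptm5 (7.33 to 8.93) and Coro1a (7.01 to 7.98) did so on none. Of the feeder markers, the collagen gene Col1a1 measured 8.66, 8.59 and 8.99 in p4 clones 1 to 3 and 9.36, 9.54 and 9.14 in p16 clones 1 to 3 (adjusted p = 0.0835 in limma). Thy1, which is high on fibroblasts, measured 5.50, 5.43 and 5.42 at p4 and 6.40, 6.31 and 6.04 at p16 (log2 difference 0.81, adjusted p = 0.0532), so both feeder genes were higher on each p16 array than on any p4 array without passing the test. The other 5 measured feeder markers, Col3a1, Postn, Dcn, Lum and Prrx1, overlapped between passages. Clone values below follow this order, clones 1 to 3 at p4 and then clones 1 to 3 at p16.

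The p16 array of clone 3 stood apart. Its mean correlation with the other 32 arrays was 0.9044, against 0.9605 to 0.9843 for those arrays, and its interquartile range was 3.50 against 4.0 to 4.5. A low signal at the 5′ end of a transcript relative to its 3′ end is a common sign of degraded or incompletely copied RNA, and control probe sets for Gapdh and beta-actin measure it. The Gapdh 3′ minus 5′ log2 difference was 0.81, 0.95 and 1.88 at p4 and 3.40, 2.07 and 7.03 at p16, and that of beta-actin was 1.13, 1.21 and 2.07 at p4 and 3.43, 2.53 and 4.87 at p16. Neither set of values overlapped between the passages. Over the 27 arrays of other groups the Gapdh difference ran from 0.60 to 4.20. This measure was therefore higher at p16 in these lines, and its part in the gene differences was not tested. Beside the values from all 6 arrays stand those without p16 clone 3 and those from a fit without that array that takes the mean of both control differences as a covariate, called the 3′ to 5′ covariate below, whose slope comes from all arrays kept in the fit.

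**Figure D1:**
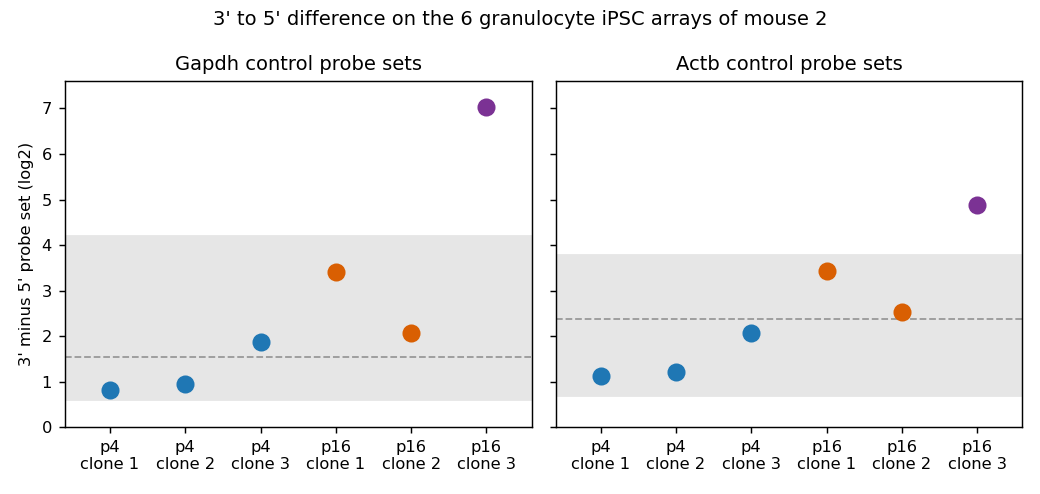
The 3′ minus 5′ log2 differences of the Gapdh and beta-actin control probe sets on the 6 granulocyte iPSC arrays of mouse 2, by passage and clone. The grey band gives the range of the 27 arrays of other groups and the dashed line their median. Both differences are higher on the p16 arrays than on the p4 arrays, and p16 clone 3 lies above the band in both.

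Across 11807 genes, 4249 (36.0%) passed an adjusted p of 0.05 between p16 and p4 in limma, 2592 higher (22.0%) and 1657 lower (14.0%). Genes that passed are called changed here. Without p16 clone 3 the number was 2370 (20.1%), with 1565 higher (13.3%) and 805 lower (6.82%). The fits shared 2045 genes, all in the same direction, which is 48.1% of the larger set and 86.3% of the smaller. With the 3′ to 5′ covariate and without clone 3, 903 genes were higher (7.65%) and 288 lower (2.44%), and 928 of these 1191 (10.1%) were also called without the covariate, in the same direction. That covariate with all 6 arrays left 8.88% of genes called, and taking the clone as a block in place of it left 31.0%. Changes over 1 log2 unit were counted in 687 higher and 654 lower genes with all 6 arrays and in 512 and 220 without clone 3. The values of the 3 p16 and 3 p4 arrays did not overlap for 5034 genes (42.6%).

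The median gene was 0.21 log2 units higher at p16 with all 6 arrays and 0.09 higher without clone 3, and single genes can be read against those shifts. Of the called genes, 61.0% were higher in the deposited scale, 49.5% after quantile normalization, 47.6% after cyclic loess normalization and 36.4% after centring each array on its median. Counts over a gene list below are to be read against the shares of all genes called: 22.0% higher and 14.0% lower with all 6 arrays, 13.3% and 6.82% without clone 3, and 7.65% and 2.44% with the covariate and without clone 3. With the clone as a block, 2214 of 11807 genes were higher and 1451 lower. After quantile, cyclic loess and median centring, 1760, 1717 and 1327 were higher and 1796, 1887 and 2320 lower.

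**Figure D2:**
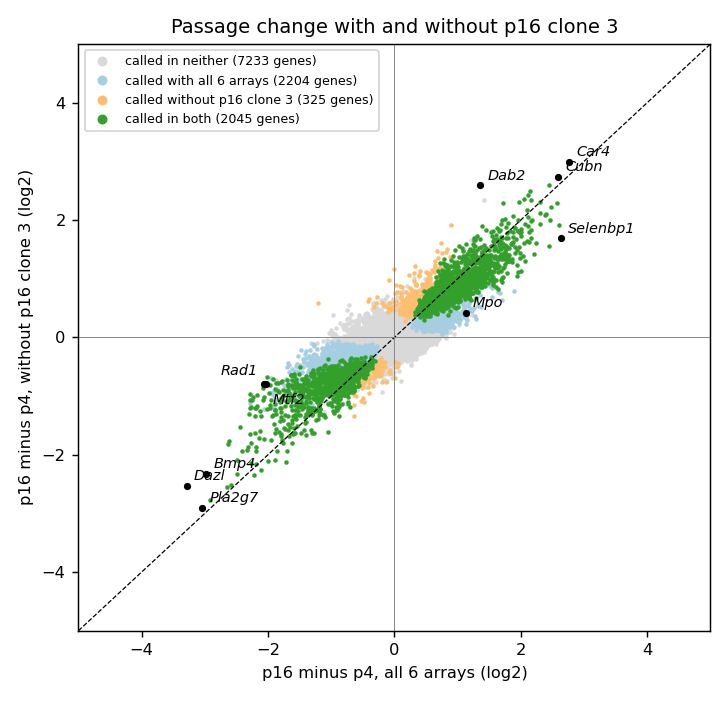
Each point is a gene, with its log2 difference between p16 and p4 from all 6 arrays on the x axis and from the 5 arrays without p16 clone 3 on the y axis; colours give the fits in which it passed an adjusted p of 0.05. The 2045 genes called in both fits lie in the quadrants of equal sign.

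Among the genes with the largest increases, Car4, which encodes a membrane-anchored carbonic anhydrase, measured 5.24, 4.84 and 5.75 at p4 and 8.54, 8.01 and 7.57 at p16. It was 6.78-fold higher at p16 (log2 difference 2.76 ± 0.61 SE, adjusted p = 0.00131 in limma) and 7.97-fold higher without clone 3 (adjusted p = 0.00262). All 3 p16 clones exceeded all 3 p4 clones. Cubn, the endocytic receptor cubilin of visceral endoderm and kidney, measured 6.07, 5.66 and 5.86 at p4 and 9.49, 7.71 and 8.15 at p16 (log2 difference 2.59 ± 0.65 SE, adjusted p = 0.00369). Frmd5, which encodes a FERM domain protein, measured 3.75, 3.93 and 4.21 at p4 and 6.46, 6.65 and 6.12 at p16 (log2 difference 2.44 ± 0.19 SE, adjusted p = 4.87e-09). The clones of Car4, Cubn and Frmd5 did not overlap between passages, and with the 3′ to 5′ covariate and without clone 3 the differences were 3.60, 3.23 and 2.45 (adjusted p = 0.00601, 0.0205 and 4.01e-06).

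Retreg1, a receptor for autophagy of the endoplasmic reticulum, measured 6.68, 6.01 and 6.69 at p4 and 8.96, 8.56 and 9.60 at p16, a 5.96-fold increase (adjusted p = 4.74e-07). Rasd2, a small GTPase of the Ras family, rose from 5.32, 5.28 and 5.25 to 7.53, 7.50 and 8.26. Selenbp1, a methanethiol oxidase, measured 5.71, 5.21 and 5.58 at p4 and 7.35, 7.04 and 10.03 at p16. Its high value in p16 clone 3 carried part of the difference, which was 2.64 with all 6 arrays and 1.69 without that clone, both passing the test. Selenbp2, a near-identical copy whose probe set may not separate it from Selenbp1, did the same, at 2.45 and 1.56. The other members of this set were Gdpd5, Inca1, Ppfia4, Rnf157 and Tmem191c, with log2 differences of 2.31 to 2.61.

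Without p16 clone 3 the largest increases included Dab2, an endocytic adaptor that works with cubilin, which measured 6.03, 5.17 and 5.28 at p4 and 8.80, 7.37 and 4.37 at p16. The clone 3 value lay below all 3 p4 clones, so the difference was 1.36 with all 6 arrays (adjusted p = 0.151) and 2.59 without clone 3 (adjusted p = 0.00718). St6galnac3 and B4galnt2, which add sugars to glycans, rose by 2.31 and 2.30 log2 units without clone 3. Cacna1h, a low-voltage-activated calcium channel, measured 4.41, 4.75 and 4.83 at p4 and 6.92, 7.25 and 6.14 at p16 (log2 difference 2.11, adjusted p = 0.000217).

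Among the decreases, Pla2g7, the secreted enzyme that breaks down platelet-activating factor, measured 9.04, 8.95 and 8.26 at p4 and 5.97, 5.72 and 5.44 at p16. It was 8.22-fold lower (log2 difference -3.04 ± 0.23 SE, adjusted p = 2.47e-09), with -2.90 without clone 3 and -2.63 with the covariate and without clone 3 (adjusted p = 1.1e-05). Dazl, an RNA-binding protein of germ cells, measured 9.38, 9.45 and 8.76 at p4 and 6.65, 6.68 and 4.40 at p16 (log2 difference -3.29 ± 0.57 SE, adjusted p = 0.000134). Bmp4, a secreted BMP ligand, measured 9.30, 8.88 and 8.56 at p4 and 7.01, 6.17 and 4.61 at p16 (log2 difference -2.98 ± 0.50 SE, adjusted p = 0.000114). All 3 genes were lower in each p16 clone than in each p4 clone. With the covariate and without clone 3, Dazl and Bmp4 no longer passed, at -1.60 and -1.70 (adjusted p = 0.0861 and 0.0572).

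Serpinb9b, a serpin of the family that inhibits granule proteases, fell from 7.61, 8.08 and 7.72 to 5.31, 5.19 and 4.98 (log2 difference -2.64, adjusted p = 3.58e-05). Trh, the precursor of thyrotropin-releasing hormone, fell from 11.65, 11.69 and 11.16 to 8.62, 9.71 and 8.68. Dgcr8, the partner of Drosha in microRNA processing, measured 6.54, 5.96 and 5.51 at p4 and 3.63, 3.84 and 4.22 at p16 (log2 difference -2.11, adjusted p = 2.04e-06). The values of Serpinb9b, Trh and Dgcr8 did not overlap between passages. Ino80c, Sp3, Cldnd1 and Kif23 also fell, with p16 clone 3 the lowest array for each. With the covariate and without clone 3, these 4 genes and Trh did not pass (adjusted p = 0.154 for Ino80c, 0.118 for Sp3, 0.337 for Cldnd1, 0.102 for Kif23 and 0.0815 for Trh). Of the 34 genes with the largest changes in either fit, 33 passed with all 6 arrays, 34 without clone 3 and 25 with the covariate and without clone 3. The fits themselves chose these genes, so the counts called describe the choice. Of the 15 of them with several probe sets, 13 had all probe sets in the same direction.

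**Figure D3:**
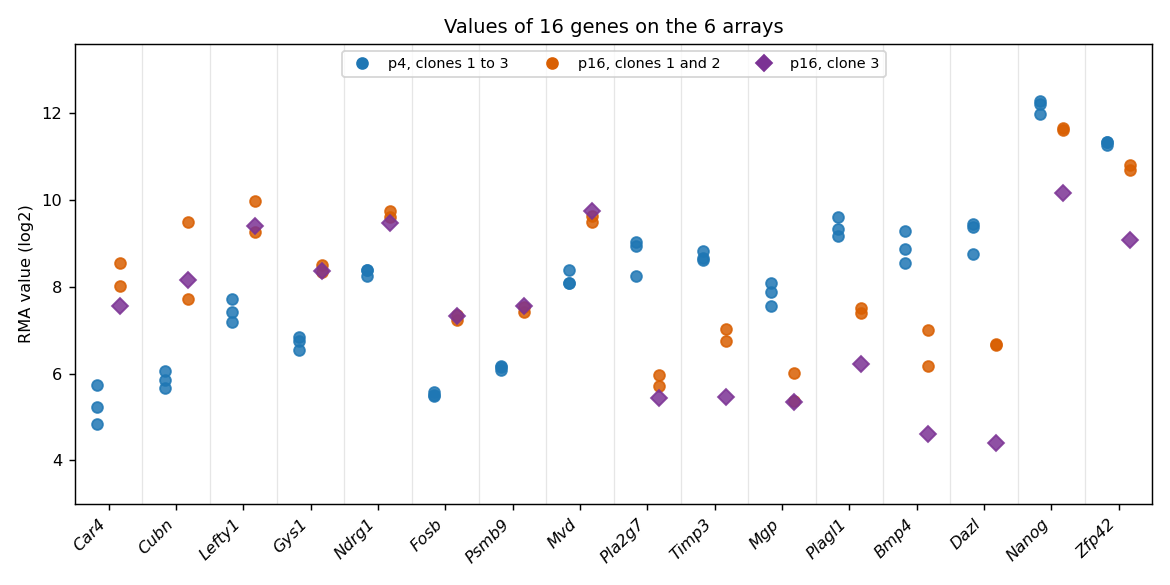
Log2 values of 16 named genes on each of the 6 arrays, p4 and p16 side by side, 1 point per clone. Car4, Cubn and Lefty1 are higher in all 3 p16 clones, Pla2g7, Mgp and Plagl1 are lower in all 3, and p16 clone 3 is the lowest point for Nanog and Zfp42.

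Hypoxia-inducible factors (HIFs) bind an ACGTG core and switch on genes for pH control, glycogen, collagen folding and mitophagy, and their subunit Hif1a is controlled mainly at the protein level. Of 22 measured genes of the HIF target list, 10 were higher and 3 lower with all 6 arrays, 11 and 1 without clone 3, and 11 and 0 with the covariate and without clone 3. The list's median log2 difference was 0.46 with all 6 arrays and 0.56 without clone 3, beside 0.21 and 0.09 for all genes. For 4 members that rose, the 250 bases before the RefSeq start (GRCm38.p6) are shown because they hold the letters ACGTG on either strand, which stand in capitals. The windows are chr11:54100674-54100923 on the plus strand for P4ha2, chr4:43506776-43507025 on the plus strand for Car9, chr7:138909507-138909756 on the minus strand for Bnip3 and chr10:59951771-59952020 on the minus strand for Ddit4.
P4ha2: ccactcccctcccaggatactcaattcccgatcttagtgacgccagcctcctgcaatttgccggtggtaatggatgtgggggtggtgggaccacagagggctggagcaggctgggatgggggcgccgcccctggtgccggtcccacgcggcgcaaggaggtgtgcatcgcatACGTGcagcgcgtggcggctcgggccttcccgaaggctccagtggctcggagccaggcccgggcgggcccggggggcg
Car9: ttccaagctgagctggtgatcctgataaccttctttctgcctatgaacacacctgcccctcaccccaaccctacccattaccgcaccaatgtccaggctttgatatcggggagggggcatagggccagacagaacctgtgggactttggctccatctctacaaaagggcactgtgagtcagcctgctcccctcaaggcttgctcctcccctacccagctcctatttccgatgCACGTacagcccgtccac
Bnip3: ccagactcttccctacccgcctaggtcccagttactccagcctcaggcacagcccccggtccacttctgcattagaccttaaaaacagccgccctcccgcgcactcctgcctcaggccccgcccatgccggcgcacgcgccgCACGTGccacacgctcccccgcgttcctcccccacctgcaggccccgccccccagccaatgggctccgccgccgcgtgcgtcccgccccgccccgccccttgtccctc
Ddit4: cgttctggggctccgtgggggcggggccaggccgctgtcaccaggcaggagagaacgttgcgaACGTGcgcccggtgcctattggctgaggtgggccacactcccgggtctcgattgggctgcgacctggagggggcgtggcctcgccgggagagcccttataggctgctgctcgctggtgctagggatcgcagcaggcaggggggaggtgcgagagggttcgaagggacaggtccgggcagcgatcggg
In Bnip3 the letters read ACGTG on both strands and overlap. Of the 17 list members with a promoter in the RefSeq table, 11 held ACGTG, against 18.5% of all 27025 genes there, with windows of the same length. Among members called higher in either fit 5 of 9 held it, and among the other members 6 of 8. A match describes the sequence only.

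Gys1, muscle-type glycogen synthase, measured 6.54, 6.85 and 6.76 at p4 and 8.35, 8.50 and 8.37 at p16 (3.22-fold, log2 difference 1.69 ± 0.18 SE, adjusted p = 7.12e-07). Ndrg1, a stress-induced differentiation gene, measured 8.38, 8.26 and 8.39 at p4 and 9.75, 9.62 and 9.47 at p16 (log2 difference 1.27, adjusted p = 0.000161). Neither gene overlapped between passages, and both passed with the covariate. Adm, the vasodilator peptide adrenomedullin, rose by 1.36, and the carbonic anhydrases Car12 and Car9 rose by 1.72 and 1.00. P4ha2, a collagen prolyl hydroxylase whose promoter is shown above, measured 7.45, 6.97 and 7.28 at p4 and 8.78, 8.17 and 7.13 at p16, with clone 3 inside the p4 range. Its difference was 0.80 with all 6 arrays (adjusted p = 0.0293) and 1.24 without clone 3 (adjusted p = 0.00079). Bnip3, a mitophagy receptor chosen here after its values were seen, averaged 11.08 ± 0.07 (SD, n = 3) at p4 and 11.87 ± 0.32 at p16 without overlap (log2 difference 0.79, adjusted p = 0.00067).

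Members that fell with all 6 arrays were Pdk1 (-0.87), the histone demethylase Kdm3a (-0.74) and Hif1a itself (-0.70). Of these, Kdm3a also fell without clone 3 (-0.62, adjusted p = 0.00269). In the glycolysis list, 5 of 20 genes were higher and 2 lower with all 6 arrays, near the 22.0% and 14.0% of all genes, and 6 and 0 without clone 3. Eno2 (1.80), Hk1 (1.02), the lactate exporter Slc16a3 (0.86), Eno3 (0.78) and Pfkm (0.72) rose. The list's median was 0.08 with all 6 arrays and 0.14 without clone 3, beside 0.21 and 0.09 for all genes. Most enzymes of the set did not pass.

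Shortage of amino acids or stress in the endoplasmic reticulum activates Atf4, which with C/EBP partners binds elements of the form TGATGNAA, and the list of such targets holds amino acid transporters, tRNA synthetases and stress regulators. Of 30 measured members, 11 were higher and 3 lower with all 6 arrays, 13 and 0 without clone 3, and 7 and 0 with the covariate and without clone 3, with a median of 0.29 and 0.44 in the first and second fits. The promoters below hold TGATGNAA on the minus strand of the printed sequence, in capitals, and are shown for members higher at p16. They are chr7:126625471-126625720 (minus) for Nupr1, chr2:119350992-119351241 (plus) for Chac1 and chr8:111033592-111033841 (plus) for Aars.
Nupr1: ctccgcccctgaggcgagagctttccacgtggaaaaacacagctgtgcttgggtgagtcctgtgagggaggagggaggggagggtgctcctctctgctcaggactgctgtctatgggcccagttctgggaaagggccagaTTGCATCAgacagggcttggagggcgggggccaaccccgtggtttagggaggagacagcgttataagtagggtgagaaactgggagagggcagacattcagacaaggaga
Chac1: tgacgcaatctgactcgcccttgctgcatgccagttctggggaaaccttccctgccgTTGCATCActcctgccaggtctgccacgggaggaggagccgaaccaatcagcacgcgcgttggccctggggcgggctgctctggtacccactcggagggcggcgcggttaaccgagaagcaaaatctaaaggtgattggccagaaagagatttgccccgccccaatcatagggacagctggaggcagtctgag
Aars: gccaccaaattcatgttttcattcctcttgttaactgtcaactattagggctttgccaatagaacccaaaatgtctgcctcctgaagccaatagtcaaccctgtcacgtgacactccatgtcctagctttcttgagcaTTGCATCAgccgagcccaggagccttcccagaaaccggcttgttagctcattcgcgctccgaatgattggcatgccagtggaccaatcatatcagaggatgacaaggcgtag
The letters stood in 8 of the 25 members with a promoter in the table, against 3.91% of all 27025 genes there. They were in 5 of 14 members called higher in either fit and in 3 of 11 of the others.

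Chac1, which degrades glutathione, measured 6.09, 5.82 and 6.32 at p4 and 7.27, 7.51 and 7.62 at p16, with no overlap (log2 difference 1.39 ± 0.32 SE, adjusted p = 0.00179; 0.0634 with the covariate and without clone 3). Nupr1, a stress-induced chromatin protein, measured 9.93, 9.70 and 9.56 at p4 and 10.93, 11.24 and 9.11 at p16. Clone 3 lay below the p4 range, and the difference was 0.70 with all 6 arrays (adjusted p = 0.139) and 1.36 without clone 3 (adjusted p = 0.00305). Aars, the alanyl-tRNA synthetase, measured 10.55, 10.87 and 10.92 at p4 and 11.36, 11.39 and 11.44 at p16 (log2 difference 0.62, adjusted p = 0.0243; 0.0703 without clone 3, 0.0607 with the clone as a block). Nupr1 and Aars were chosen after their values were seen. Cebpb (1.61), Shmt2 (1.10) and Cebpg (0.85) rose as well. Atf4 itself (-0.72), Asns (-0.59) and the arginine transporter Slc7a3 (-1.03) fell with all 6 arrays and did not pass without clone 3. Herpud1, which acts in degradation of proteins from the endoplasmic reticulum, rose by 1.27 (adjusted p = 0.000268).

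Class I antigen presentation displays peptides cut by the immunoproteasome on H2 molecules, and pluripotent cells are known for low levels of it. Of 8 measured genes, 7 were higher and 0 lower with all 6 arrays and 6 and 0 without clone 3, with medians of 1.13 and 1.14. Psmb9, an immunoproteasome subunit, measured 6.18, 6.16 and 6.09 at p4 and 7.54, 7.43 and 7.56 at p16 (2.58-fold, log2 difference 1.37 ± 0.19 SE, adjusted p = 1.82e-05). Its 3 probe sets moved in the same direction. Erap1, which trims peptides, rose by 1.77, and Psmb8 and Psmb10 by 1.72 and 1.06. H2-D1 measured 6.42, 6.40 and 6.54 at p4 and 7.56, 7.84 and 7.58 at p16 (log2 difference 1.21, adjusted p = 0.000125). H2-K1 measured 7.52, 7.40 and 7.78 at p4 and 9.15, 9.04 and 7.69 at p16, so that clone 3 overlapped the p4 clones (log2 difference 1.06, adjusted p = 0.0394; 0.0723 with the clone as a block). The class I genes are close copies, and probe sets may not separate them fully. Tapbp was the measured member that did not pass (-0.02).

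The interferon response list had 6 of 20 genes higher and 1 lower with all 6 arrays, beside 22.0% and 14.0% of all genes, and 3 and 1 without clone 3, which is near the 13.3% and 6.82% of all genes. Gbp2, an interferon-induced GTPase, measured 5.20, 5.05 and 5.63 at p4 and 7.08, 7.39 and 6.49 at p16 (log2 difference 1.69, adjusted p = 0.00331). Oas1g rose by 1.81 and Irf1 by 0.44, whereas Irf9, a subunit of the interferon-activated ISGF3 complex, fell by 0.88. Irf8, a transcription factor of myeloid cells, measured 4.26, 4.38 and 4.29 at p4 and 6.39, 6.18 and 6.83 at p16 (log2 difference 2.16, adjusted p = 0.000146).

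Immediate early genes respond within minutes to growth factors and stress, dissociation included. Of 20, 7 were higher and 2 lower with all 6 arrays, 6 and 1 without clone 3, and 5 and 0 with the covariate and without clone 3. Fosb, an AP-1 subunit, measured 5.49, 5.51 and 5.57 at p4 and 7.23, 7.35 and 7.34 at p16 (3.45-fold, log2 difference 1.79 ± 0.29 SE, adjusted p = 7.31e-05). The spread within each passage was small against this difference. Jun, Egr2, Jund and Fos rose by 1.45, 1.63, 0.94 and 0.76, and Nr4a1 and Fosl1 fell (-0.86 and -0.77). Jun's other probe set moved the opposite way.

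In cholesterol synthesis 5 of 17 genes were higher and 2 lower with all 6 arrays, near the 22.0% and 14.0% of all genes, and 4 and 0 without clone 3, with a median of -0.18 in the first fit and 0.20 in the second. Mvd, which makes isopentenyl pyrophosphate from mevalonate, measured 8.10, 8.09 and 8.38 at p4 and 9.64, 9.49 and 9.74 at p16 (2.70-fold, adjusted p = 2.35e-05). Lss (1.17), Dhcr7 (0.96) and Fdft1 (0.54) rose in that fit, and Sc5d (-1.19) and Ebp (-0.77) fell.

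Primitive endoderm gives rise to visceral and parietal endoderm, which take up nutrients and lay down basement membrane. Of 25 measured effector genes, 8 were higher and 3 lower with all 6 arrays (5 and 2 with the clone as a block), and 5 and 1 without clone 3, with medians of 0.69 and 0.51. The mean level of the list was 7.41, 7.25 and 7.22 at p4 and 8.34, 7.69 and 7.46 at p16. The rise was thus uneven, with p16 clone 1 the highest and p16 clone 3 close to p4 clone 1. Cubn, given above, had the largest change of the list with all 6 arrays. Col4a1 and Lamb1 of the basement membrane rose by 1.26 and 0.79, the retinol carrier Rbp4 by 1.29 and the apolipoprotein Apoa1 by 1.20. Thbd and Lamc1, the latter also of the basement membrane, fell with all 6 arrays (-1.46 and -1.18), and so did the apolipoprotein Apoe. Of 12 endoderm regulators, Sox17, Foxa2 and Foxq1 rose and Eomes and Hhex fell with all 6 arrays. Their mean level was 5.47, 5.38 and 5.28 at p4 and 6.04, 5.42 and 5.56 at p16, with p16 clone 2 inside the p4 range. Without clone 3 Sox17 and Eomes still passed, and with the covariate and without clone 3 none of the 12 did. Sox17, a transcription factor that sets endoderm identity, measured 4.99, 4.37 and 4.63 at p4 and 7.05, 5.57 and 6.36 at p16 (log2 difference 1.66, adjusted p = 0.0151; 0.299 with the covariate and without clone 3). Gata4 and Gata6, the defining primitive endoderm factors, did not pass (0.89 and 0.70).

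Nodal and BMP are TGF-beta family signals that act in the early embryo. In the Nodal list, 4 of 15 genes were higher and 4 lower with all 6 arrays, beside 22.0% and 14.0% of all genes, and 4 and 0 without clone 3. Lefty1, a secreted inhibitor and target of Nodal, measured 7.42, 7.19 and 7.73 at p4 and 9.26, 9.98 and 9.41 at p16 (4.29-fold, log2 difference 2.10 ± 0.50 SE, adjusted p = 0.00254). The ligand Nodal did not pass (0.19), the receptors Acvr2b and Acvr1b rose by 0.92 and 0.49, and Smad2 and Smad7 fell with all 6 arrays (-1.63 and -1.40) but did not pass without clone 3. In the BMP list, 3 of 18 were higher and 5 lower with all 6 arrays and 2 and 3 without clone 3, with fewer higher and more lower members than the 22.0% and 14.0% of all genes in the first fit. Beside the fall of Bmp4, the ligand Bmp7 measured 5.54, 5.28 and 6.04 at p4 and 6.96, 6.87 and 6.84 at p16 (log2 difference 1.27, adjusted p = 0.000599). Dusp9, an ERK phosphatase induced by BMP in these cells, rose by 0.92, and Smad7, Id2, Smad1 and Id4 fell (-1.40 to -0.80). Fgf15, a secreted FGF, rose from 5.98, 5.69 and 5.52 to 7.11, 7.32 and 7.51 (adjusted p = 6.61e-06), and the Wnt target Axin2 fell from 7.22, 7.42 and 6.72 to 5.79, 5.96 and 5.49 (adjusted p = 5.88e-05), although its other probe set moved the opposite way.

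Of 27 core and naive pluripotency genes, 0 were higher and 13 lower with all 6 arrays, 0 and 5 without clone 3, and 0 and 1 with the covariate and without clone 3. The medians were -0.47, -0.34 and -0.22, and with all 6 arrays 11 were lower after quantile or cyclic loess normalization and 20 after centring each array on its median. Over all 11807 genes, 1796, 1887 and 2320 were lower in those 3 scalings, beside 1657 in the deposited scale. Tbx3 was the member called in all 3 of these fits, at 11.04, 11.14 and 11.02 at p4 and 10.04, 9.73 and 10.66 at p16 (log2 difference -0.92, adjusted p = 0.0102; 0.0184 with the covariate and without clone 3). Nr0b1 (Dax1), a nuclear receptor of the naive network, measured 11.27, 11.32 and 11.26 at p4 and 10.21, 10.17 and 8.31 at p16 (log2 difference -1.72, adjusted p = 0.000282). Zfp42 (Rex1) measured 11.35, 11.35 and 11.26 at p4 and 10.82, 10.70 and 9.07 at p16 (-1.13, adjusted p = 0.00359), a difference that was -0.56 without clone 3 (adjusted p = 0.0408).

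Nanog measured 12.21, 12.28 and 11.98 at p4 and 11.62, 11.67 and 10.17 at p16. It fell by 1.00 with all 6 arrays (adjusted p = 0.00427), and the difference was -0.51 without clone 3 (adjusted p = 0.0553). Clone 3 was the lowest array for Nr0b1, Zfp42 and Nanog. Tfcp2l1 and Klf4 fell (-1.04 and -0.46) and passed without clone 3 as well. Esrrb and Sox2 differed by -0.40 and -0.32 and passed with all 6 arrays, but not without clone 3 (adjusted p = 0.141 and 0.168) or with the clone as a block (adjusted p = 0.0551 and 0.133). Lin28a and Myc fell with all 6 arrays (-1.34 and -1.29) and did not pass without clone 3 (adjusted p = 0.436 and 0.232). With the covariate the Lin28a difference was 0.28 (adjusted p = 0.724). Pou5f1, at 11.40, 11.27 and 11.22 against 11.19, 11.29 and 11.10, did not pass (-0.10, adjusted p = 0.520), nor did Dppa3 (0.15).

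The fibroblast matrix list covers genes of feeders and of differentiating mesenchyme. Of 37 measured members, 12 were higher and 4 lower with all 6 arrays, 10 and 3 without clone 3, and 5 and 2 with the covariate and without clone 3. Loxl1, an enzyme that crosslinks elastin, measured 6.10, 6.04 and 6.51 at p4 and 7.47, 7.52 and 6.65 at p16 (log2 difference 0.99, adjusted p = 0.00119), and Col6a2 measured 5.65, 5.56 and 5.98 at p4 and 7.13, 7.10 and 9.08 at p16. Acta2, S100a4 and Twist1 rose by 1.34, 1.16 and 1.06. Lox, Timp3 and Mgp each fell by more than 2 log2 units. Timp3, an inhibitor of matrix metalloproteinases, measured 8.82, 8.61 and 8.66 at p4 and 7.03, 6.76 and 5.47 at p16 (log2 difference -2.28 ± 0.32 SE, adjusted p = 1.57e-05). Mgp, an inhibitor of calcification, measured 8.10, 7.89 and 7.55 at p4 and 5.38, 6.02 and 5.34 at p16 (log2 difference -2.27 ± 0.33 SE, adjusted p = 2.78e-05). Of the 7 measured feeder markers, Col1a1 and Thy1 were higher on each p16 array without passing and the other 5 overlapped between passages (above); the part of feeder cells in these members was not tested.

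Imprinted genes are expressed from the allele of a single parent, and some are unstable in cultured pluripotent cells. Of 23, 5 were higher and 2 lower with all 6 arrays and 2 and 2 without clone 3, so the list as a whole was called no more often than all genes with all 6 arrays (22.0% and 14.0%). Plagl1, an imprinted zinc finger gene, measured 9.33, 9.62 and 9.18 at p4 and 7.51, 7.39 and 6.22 at p16 (5.04-fold lower, log2 difference -2.33 ± 0.27 SE, adjusted p = 2e-06). It also passed with the covariate and without clone 3 (adjusted p = 0.000764). Snurf measured 9.02, 8.55 and 6.73 at p4 and 4.46, 6.20 and 4.86 at p16 (log2 difference -2.92, adjusted p = 0.00036; 0.171 with the covariate and without clone 3), while Snrpn, which shares its transcript, did not pass (0.11), so these probe sets disagree. Meg3, a maternally expressed noncoding RNA, measured 6.63, 7.37 and 6.66 at p4 and 8.64, 7.69 and 8.56 at p16 (log2 difference 1.41, adjusted p = 0.0284; 0.106 without clone 3), and its neighbour Rian did not pass (-0.73, adjusted p = 0.371). In the germline list 3 of 24 genes were higher and 6 lower with all 6 arrays, beside 22.0% and 14.0% of all genes, and 3 and 3 without clone 3. Stra8, Tdrd7 and Tex14 rose by 1.68, 0.89 and 0.84, and Dazl, Taf7l and Ddx4 fell (-3.29, -1.19 and -1.04).

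Calls in lists of housekeeping complexes fell in number without clone 3, and so did calls over all genes. Those went from 22.0% higher and 14.0% lower (1657 genes) to 13.3% and 6.82% (805 genes). Lower calls fell by a similar share among splicing factors and Polycomb genes. They fell more steeply among proteasome, DNA replication and mitosis, and ribosomal protein genes. Splicing factors had 2 of 25 higher and 13 lower with all 6 arrays, 1 and 6 without clone 3, and 0 and 5 with the covariate and without clone 3. Rbm25, a splicing regulator, measured 11.08, 11.09 and 10.83 at p4 and 9.94, 10.12 and 9.62 at p16 (log2 difference -1.11, adjusted p = 2.93e-05), and Srsf10 fell by 1.23. The proteasome had 1 of 30 higher and 12 lower, and 0 and 4 without clone 3. DNA replication and mitosis genes had 2 of 36 higher and 11 lower, and 2 and 2 without clone 3, with a median of -0.35 and 0.05. Polycomb genes had 1 of 23 higher and 9 lower, and 2 and 4 without clone 3; Eed, Suz12, Jarid2 and Mtf2 fell in both fits, and with the covariate none of them passed. Ribosomal protein genes had 0 of 63 higher and 9 lower, a share of lower genes close to the 14.0% of all genes, and 0 and 1 without clone 3 (0 and 4 with all 6 arrays and the clone as a block). After cyclic loess normalization 6 were higher and 4 lower, so their direction depends on the scaling.

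Hox genes, off in pluripotent cells, had 11 of 29 higher and 0 lower with all 6 arrays, 6 and 0 with the clone as a block, and 0 and 0 without clone 3; 1 was higher after quantile, cyclic loess or median centring. Hoxc4 measured 4.33, 4.0 and 3.34 at p4 and 4.02, 4.43 and 6.59 at p16, so that clone 3 stood alone. Granulocyte identity genes had 8 of 27 higher and 0 lower with all 6 arrays, beside 22.0% and 14.0% of all genes, and 1 and 0 without clone 3. The neutrophil enzyme gene Mpo measured 3.24, 3.33 and 3.36 at p4 and 3.95, 3.51 and 5.86 at p16 (adjusted p = 0.00827; 0.0900 without clone 3). Alox5ap, of leukotriene synthesis, was the member that also passed without clone 3 (0.89, adjusted p = 0.0201). The rise was not particular to genes of the origin. T cell identity genes had 7 of 16 higher and 0 lower with all 6 arrays, and 1 and 0 without clone 3. B cell identity genes had 2 of 13 higher and 0 lower, and 1 and 1 without clone 3. The medians with all 6 arrays were 0.38 for granulocyte, 0.38 for T cell and 0.40 for B cell genes. The lower quartile of all genes was 5.29 on p16 clone 3 and 4.54 to 4.75 on the other arrays.

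**Figure D4:**
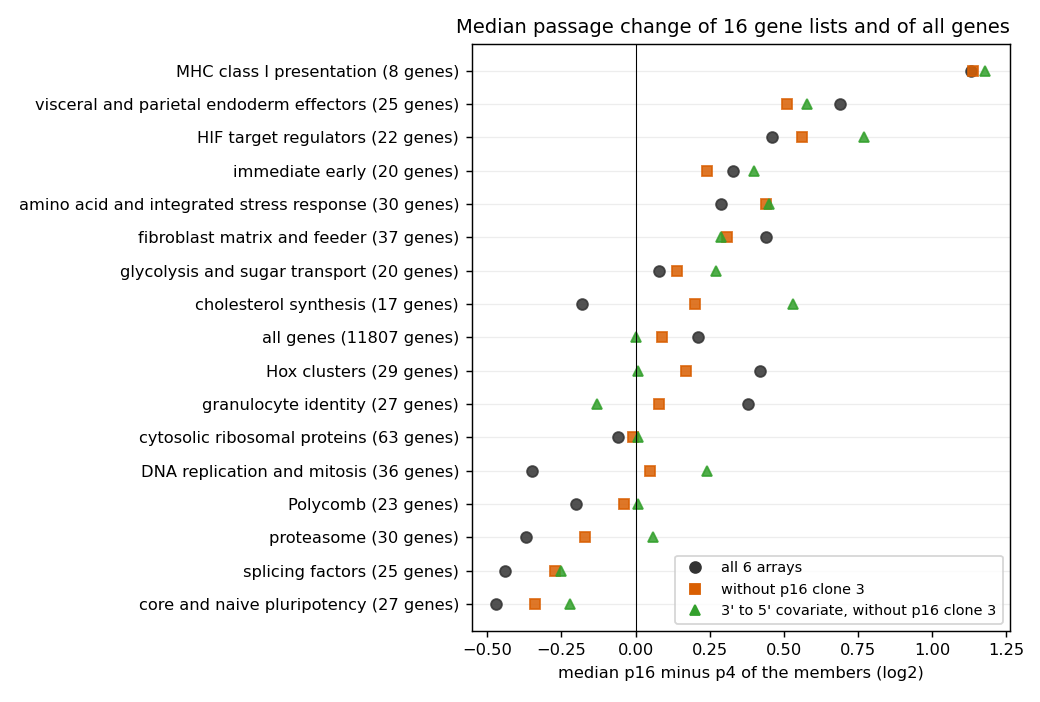
Median log2 difference between p16 and p4 of 16 gene lists and of all genes, from all 6 arrays, without p16 clone 3, and without it with the 3′ to 5′ covariate. MHC class I genes stay near 1.1 in all 3 fits, while DNA replication and mitosis moves from -0.35 through 0.05 to 0.24.

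Direct comparison of p16 clone 3 with the mean of p16 clones 1 and 2 describes how it stood apart and carries no test. The genes most above were Antxr1 (3.31 log2 units), Kazn (3.21), Ccl9 (2.95) and Selenbp1 (2.83). The genes most below were Itsn1 (-5.38), an endocytic scaffold, Orc4 (-4.10) of the origin recognition complex, Siah1b (-4.03), Rbbp6 (-3.97) and Rad1 (-3.83) of the DNA damage checkpoint clamp. Dab2, described above, was lower by 3.71.

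The passage change was then compared with that of the other mouse 2 lines by the difference between the granulocyte change and the mean change of the tail tip fibroblast, B cell and T cell lines. This difference uses the same 6 granulocyte arrays as the results above and is not independent of them. It passed for 2853 genes (24.2%), 1707 more positive (14.5%) and 1146 more negative (9.71%) in the granulocyte lines. Without clone 3 it passed for 2014 genes (17.1%), 1350 more positive and 664 more negative. Irf8 rose by 2.16 in the granulocyte lines, and its change was -0.997 in tail tip fibroblast, -0.67 in B cell and -2.22 in T cell lines (difference 3.46 ± 0.43 SE, adjusted p = 5.01e-06). Bcl6, a transcriptional repressor of lymphocytes, measured 6.15, 5.70 and 6.72 at p4 and 8.09, 8.28 and 8.72 at p16 in the granulocyte lines, with changes of -1.38, 0.16 and -1.47 in the other origins (difference 3.07, adjusted p = 3.82e-06). Pla2g7 changed by 0.40, 0.06 and 0.01 in the other origins (difference -3.20 ± 0.26 SE, adjusted p = 2.12e-08), and Bmp4 by -0.07, 0.30 and 0.61 (difference -3.26, adjusted p = 0.000309).

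For this difference, list counts are to be read against 14.5% more positive and 9.71% more negative of all genes. Without p16 clone 3 the counts over all 11807 genes were 1350 and 664. Immediate early genes had 10 of 20 members with a more positive change in the granulocyte lines and 0 with a more negative one (8 and 0 without p16 clone 3), and MHC class I genes had 4 and 0 of 8 (5 and 0). Pluripotency genes had 0 and 18 of 27, with a median difference of -0.68, and 0 and 10 with a median of -0.43 without p16 clone 3. The HIF target list had 5 in each direction, and 5 more positive and 3 more negative without p16 clone 3. Mgp was lower at p16 in every origin, by -1.85 in tail tip fibroblast, -1.86 in B cell and -4.73 in T cell lines, and its difference did not pass (0.55, adjusted p = 0.295). The 3′ minus 5′ measure also differed in these groups. Its mean Gapdh value went from 1.21 to 4.17 in the granulocyte lines, from 2.92 to 1.77 in tail tip fibroblast, from 0.71 to 2.32 in B cell and from 1.87 to 2.75 in T cell lines.

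Against the granulocyte lines of mouse 1, where the mean Gapdh value went from 0.64 to 1.03, the passage change differed for 429 genes (3.63%), 258 more positive (2.19%) and 171 more negative (1.45%). With the clone as a block the number was 259, and without p16 clone 3 it was 292 (2.47%). Pla2g7 changed by 0.76 in mouse 1 against -3.04 in mouse 2 (difference -3.80 ± 0.32 SE, adjusted p = 4.19e-08). Egr2 changed by -1.76 in mouse 1 and 1.63 in mouse 2 (difference 3.39 ± 0.37 SE, adjusted p = 4.75e-06). Car4, Cubn and Amot, a tight junction scaffold of Hippo signalling, changed by -1.27, -1.18 and -1.70 in mouse 1 and rose in mouse 2, with differences of 4.03, 3.76 and 3.58 (adjusted p = 0.0092, 0.021 and 0.00645). For these 5 genes the passage changes of the same labelled origin in the 2 animals had opposite signs. They were named for having the largest called differences, a choice that favours opposite signs. No p-value is given here for the mouse 1 changes alone.

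**Figure D5:**
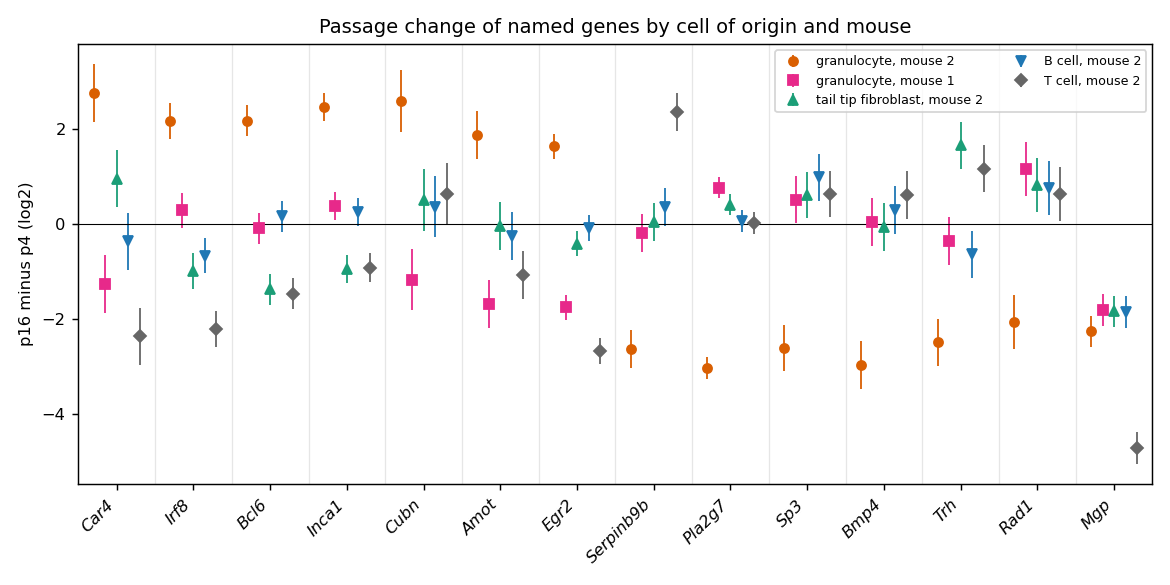
Log2 change from p4 to p16 (point, with its SE as a bar) of 14 genes in the granulocyte lines of mouse 2 and mouse 1 and in the tail tip fibroblast, B cell and T cell lines of mouse 2, 3 clones at each passage. Pla2g7 is near -3 in the granulocyte lines of mouse 2 and between 0.01 and 0.76 in the other groups, whereas Mgp is below 0 in all 5 groups.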

How the data were processed

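The authors deposited log2 expression values per probe set, made with RMA per the submitters' processing notes; the version and annotation are not given in the sources used here. The table holds 33 arrays (p4, p6 and p16) and 22690 probe sets, of which 18003 carry 1 gene symbol, 287 several and 4400 none. Those with 1 symbol gave 11807 genes, each by its probe set with the highest mean. A table of 12 p10 arrays was normalized separately and is not used. The number of arrays, not a read depth, limits the precision.

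Groups came from the labels. In limma 3.58.1 (R 4.3.3) each group had its own mean over all 33 arrays (22 residual degrees of freedom), with two-sided moderated tests and Benjamini-Hochberg adjustment over 11807 genes. With 3 against 3 arrays an exact permutation test cannot go below 0.1, so none is given. The other passage changes were compared as differences of differences in the same fit. Scripts were tested on simulated data.

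Deviations of same-numbered clones from their group means over 2000 genes gave r = 0.243, 0.199 and 0.311, and p4 clone 1 with p16 clone 2 gave r = 0.26. The p16 group mean includes the outlying clone 3, so these r values depend on each other. They cannot decide whether same-numbered clones are paired. An alternative fit blocked on the clone. Other alternatives were normalizations, probe set choice, a filter on dim genes, array weights (gene by gene), moderation, fits on fewer arrays, each array left out, and the 3′ to 5′ covariate, which was added after seeing the data.

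Named genes were the 12 largest called changes each way without overlap, the 10 each way without p16 clone 3, up to 6 each way per difference and per gene list, the 10 most above and below on p16 clone 3, and fixed pluripotency, imprinted and feeder genes; exceptions are marked, and the markers of cell types, Lamb1, Tapbp, Gata4, Gata6, Nodal and Snrpn also stand outside this rule, the last 6 chosen after their values were seen. The members and lists were chosen with earlier results of these data known. Python 3.11.15 with pandas 2.3.3 and matplotlib 3.10.9 made tables and figures. Promoters came from RefSeq (GRCm38.p6).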

Additional observations from a re-analysis of the deposited data

Results flagged for a closer look

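The change from p4 to p16 in the granulocyte lines of mouse 2 differed from the mean change of the tail tip fibroblast, B cell and T cell lines for 2853 genes in limma (adjusted p under 0.05), and from the change in the granulocyte lines of mouse 1 for 429 genes. Each value below is such a difference on the log2 scale that passed the test, with all 6 arrays.

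Against the other origins, the more positive changes were those of Irf8 (3.46), Car4 (3.36), Bcl6 (3.07), Inca1 (3.00), Retreg1 (2.88), the cholesterol exporter Abcg1 (2.80), B4galnt2 (2.80), the cathepsin Ctsh (2.58) and N4bp2l1 (2.53). The more negative ones were those of Serpinb9b (-3.56), Sp3 (-3.36), Bmp4 (-3.26), Trh (-3.22), Pla2g7 (-3.20), the ETS factor Etv1 (-3.17), Krtdap (-3.02) and the heat shock factor Hsf2 (-2.77). Without p16 clone 3 all 17 of these genes still passed.

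Against mouse 1, the more positive changes were those of Car4 (4.03), Cubn (3.76), Amot (3.58), Egr2 (3.39), the protease Prss12 (2.98) and the transcription factor Tfec (2.97). The more negative ones were those of Pla2g7 (-3.80), Rad1 (-3.23), Sp3 (-3.13), Bmp4 (-3.03), Dazl (-2.77), Ceacam2 (-2.73), Krtdap (-2.56), Alyref2 (-2.49) and Serpinb9b (-2.44). Without p16 clone 3, Bmp4 and Dazl no longer passed (adjusted p = 0.0520 and 0.155).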

How the results depend on the processing

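The 4249 genes called between p16 and p4 became 2370 to 6106 when 1 array was left out, with 2644 without p4 clone 1, 2784 without p4 clone 2 and 2370 without p16 clone 3. A fit on the 6 arrays alone called 533. It has fewer degrees of freedom and takes its spread from these arrays only. Their mean correlation within the group was 0.9222 to 0.9602 at p16 and 0.9946 to 0.9959 at p4. Over the 27 arrays of other groups it was 0.9777 to 0.9957. The part of each in the lower count was not tested. The 3′ to 5′ covariate left 1049, and 1191 without p16 clone 3; the cause was not tested. With the replicate block the count was 3665. The 2853 genes that differed from the other origins became 1928 to 4588 with 1 array left out (4588 without p16 clone 2) and 1678 with the covariate.

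The 429 genes that differed from mouse 1 became 259 with the replicate block, 2935 with array weights, 161 with the covariate and 256 with the covariate and without p16 clone 3. With 1 array left out they ranged from 155 to 1849, with 193 and 155 without p4 clones 1 and 2 and 837 and 1849 without p16 clones 1 and 2, so this count rests on few arrays. Lin28a, lower with all 6 arrays, reversed with the covariate (0.28, adjusted p = 0.724) and with the covariate and without p16 clone 3 (0.15, adjusted p = 0.860). The remaining alternatives kept the counts of these 3 comparisons within 1.5 times. Of 48 single genes followed, 18 lost their call with the covariate and 16 with the covariate and without p16 clone 3, beside Lin28a, 16 in the fit on the 6 arrays alone and 6 without p16 clone 3. The block ended 2 of these calls, Esrrb and Sox2, and changed no other.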
